A study of Rattus norvegicus with 415 samples.

Results

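The samples compared here are the adipose samples of outbred rats (Rattus norvegicus) with the highest and the lowest level of Ucp1. Each group holds 25.1% of the samples of the series, which is 2 times 52, and 49.9% of the samples are in neither. Outbred rats differ from one another in their genomes. All samples came from 1 labelled group, with 1 tissue (adipose), 1 age (17 weeks), and treatment, strain, sex and fat depot were not given in the labels. RNA was sequenced as single-end reads of 75 bp, and the series set gene expression beside genetic mapping of metabolic traits. The 2 Ucp1 groups were cut from a measured value and are not groups of the study.

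Members were chosen by the FPKM of the row ENSRNOG00000003580, given as Ucp1 for this comparison. FPKM is the number of reads of a gene relative to its length and to the depth of the sample. The files pair no identifier with a gene name, and the RefSeq gene table at hand matched 0 of the 18358 identifiers. Neither the name of that row, nor the identity of the tissue as white fat, nor a thermogenic state could therefore be checked against other brown, beige or white adipocyte markers. The groups are called Ucp1-high and Ucp1-low, by the value that defined them.

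Uncoupling protein 1 sits in the inner mitochondrial membrane of brown and beige adipocytes. It lets protons return to the matrix without driving ATP synthase, so that fuel oxidation is released as heat. Cold and sympathetic nerves raise its transcription through beta-adrenergic receptors and cAMP. White fat as a rule makes little of it, and beige adipocytes scattered in a white depot are the usual source there. In a piece of whole tissue, fewer cells of a type and less RNA per cell cannot be told apart.

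The start of the gene is shown because its level chose every member. RefSeq places Ucp1 on the minus strand of chromosome 19 in the GRCr8 assembly, from 41713350 to 41721421. The promoter window, from 250 bases before to 50 bases after the start of the gene, lies at chr19:41721372-41721671 and reads 5′ to 3′ as follows, with 2 motifs in capitals.
Ucp1 promoter: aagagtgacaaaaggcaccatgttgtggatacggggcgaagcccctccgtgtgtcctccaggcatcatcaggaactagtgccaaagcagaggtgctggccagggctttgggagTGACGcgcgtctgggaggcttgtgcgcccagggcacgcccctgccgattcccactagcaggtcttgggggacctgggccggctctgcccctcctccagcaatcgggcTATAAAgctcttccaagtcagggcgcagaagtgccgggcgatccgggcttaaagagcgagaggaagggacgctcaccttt
The letters TATAAA, the core of a TATA box, begin 30 bases before the start, and they are found on either strand in 14.2% of 33469 rat promoter windows of the same length. The letters TGACG, one side of a cAMP response element, lie further upstream and are found in 21.2% of windows. The full element TGACGTCA, the nuclear receptor letters AGGTCA and the letters CCAAT were not found in this window on either strand, and they are held by 1.83%, 16.2% and 37.5% of windows. A match is a description of the letters and not evidence that a factor binds.

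Ucp1 was near the limit of detection in most samples and clearly above it in a minority. Whole reads could be recovered from the FPKM values. Over all samples Ucp1 ran from 0 to 74.3 FPKM with a median of 0.192 FPKM, which is 1 read. It was at 0 in 34.9% of samples, and 88 samples had exactly 1 read. The Ucp1-high samples ran from 1.52 to 74.3 FPKM with a median of 8.81, on a median of 50 reads and at least 8. They held 96.5% of the 10647 Ucp1 reads of the series, and the 52 highest samples alone held 85.1%.

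All Ucp1-low samples were at 0 reads. A count of 0 allows up to 3 reads, which in these samples was worth a median of 0.551 FPKM (0.397 to 1.23). The median of the high group was 15.99-fold that median floor, and less against the highest floors. These values made the groups and carry no test. The lower limit of the high group was not a gap: its lowest samples had 1.52 and 1.55 FPKM, and the highest samples outside it had 1.43 and 1.38 FPKM.

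The low group was not set by level alone. More samples were at 0 than the low group could hold. They entered it in order of accession, and the 41 that did not enter had title numbers from 63972 upward. Each sample title holds a number and a suffix that the labels do not explain. Gaps above 500 in the numbers make 3 blocks, which served as a covariate and are possible batches, not groups of the study. Block 1 held 3 high and 20 low samples, block 2 held 66 and 72, and block 3 held 35 and 12. Samples at 0 made up 51.3%, 31.03% and 36.8% of these blocks, while the low group took 8.33% of block 3. The main comparison was therefore also made with all samples at 0 as the low group.

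**Figure D1:**
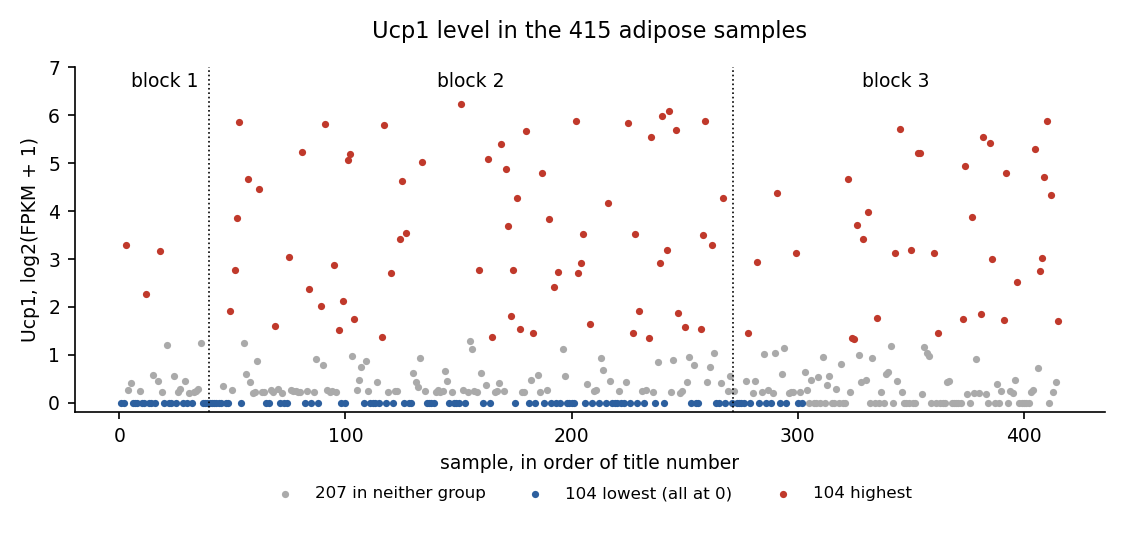
Ucp1 level (vertical axis, log2(FPKM + 1)) in each sample (points) in order of title number, coloured by group, with dotted lines between the blocks. The low samples all lie at 0 and stop early in block 3, where the remaining 41 samples at 0 belong to neither group; the high samples are spread over blocks 2 and 3, with 3 in block 1.

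Ucp1-high samples were found in all 3 blocks, at unequal shares. The share of Ucp1-high samples was 7.69% in block 1, 28.4% in block 2 and 24.3% in block 3. The 52 highest samples were in blocks 2 (35) and 3 (17), and the highest value in block 1 was 8.74 FPKM. By title suffix, 24% of samples with suffix 3, 25.8% with suffix 4, 34.3% with suffix 5 (12 of 35) and 16.7% with suffix 6 (4 of 24) were high, against 25.1% of all samples; these shares were not tested. Title numbers could be shared by samples. Among pairs of samples with the same number, 13 pairs were both high, 12 both low and 5 high with low, so that 47.3% of the partners of a high sample were high and 9.09% were low. The labels do not say what a shared number or a separate sample is. Within the 2 groups, samples with the same number had a consensus correlation of 0.227 over genes, with group and block in the fit. The main p-values measure the spread between samples and do not take this correlation into account.

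Depth differed little between the groups. Reads in genes ran from 3035522 to 5974916 in the high group with a median of 4586280, and from 2139163 to 6008321 in the low group with a median of 4556390. Fewer than 3500000 reads were found in 3 high and 6 low samples. No 2 samples had identical values.

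Many genes differed by a little between the groups, and few by much. Differences are Ucp1-high minus Ucp1-low of log2(FPKM + 1), so folds of weakly expressed genes come out too small. They were fitted with limma over both groups with block as a covariate, with p-values adjusted by Benjamini-Hochberg over 16130 genes, Ucp1 left out. The test asks which genes went along with Ucp1 across samples. At an adjusted p under 0.05, 1947 genes (12.1% of those tested) were called, of which 892 (5.53%) were higher and 1055 (6.54%) lower in the Ucp1-high samples. The median difference was 0.13 for the genes called higher and -0.16 for those called lower, against -0.01 over all genes. With all samples at 0 as the low group, 979 genes were higher and 896 lower (11.6% in all). The 2 comparisons share most samples, and 1504 genes were called in both, 77.2% of the first list and 80.2% of the second.

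**Figure D2:**
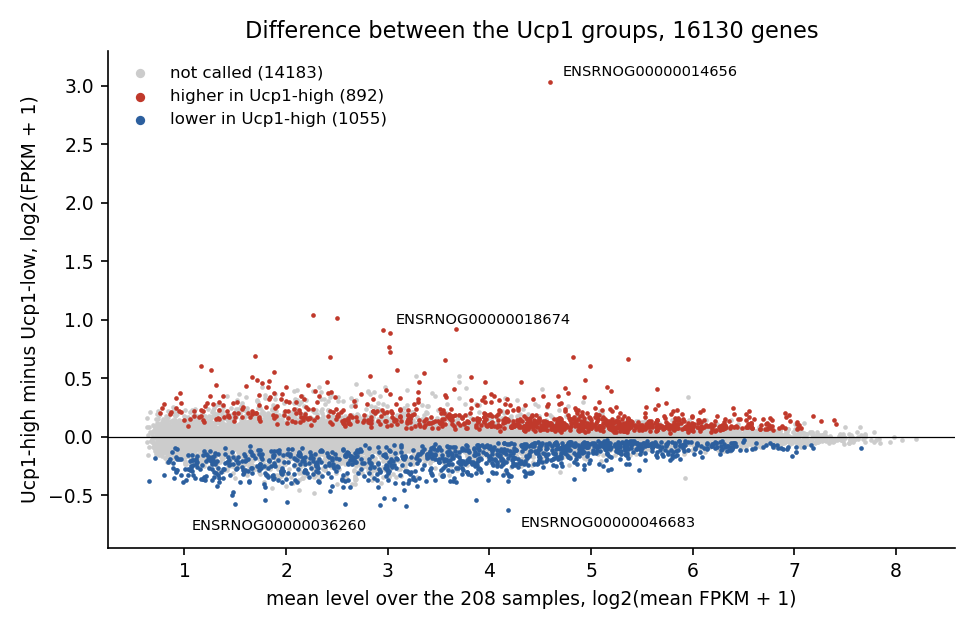
Difference between the Ucp1-high and Ucp1-low samples (vertical axis, log2(FPKM + 1)) against the mean level (horizontal axis, log2 of mean FPKM + 1) for 16130 genes (points), with called genes in red (higher) and blue (lower). Most called genes lie near 0, and ENSRNOG00000014656 stands alone at 3.03.

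Large differences were few in both directions, and how many were seen on each side depended on the setting. Among called genes, 22 were higher by more than 0.5 (0.136% of genes tested) and 10 lower by more than 0.5 (0.0620%), while 3 were higher and 0 lower by more than 1. The 22 genes had a median level of 7.07 FPKM on 65.9 reads per sample, against 15.4 FPKM over all genes. The 10 genes had a median of 6.69 FPKM on 25.5 reads and a median length of 1018 bp, against 2039 bp over all genes. With all samples at 0 as the low group, 25 genes were called higher and 0 lower by more than 0.5, and with the last samples at 0 by accession 34 were higher and 1 lower. With a pseudocount of 0.1 in place of 1, which shrinks weakly expressed genes less, 53 were higher and 55 lower. All 32 genes kept their sign under these 3 settings, which share the high samples that chose the genes, so this count carries no test. Within block 1, 18 of the 32 kept their sign. By slope on Ucp1 in the samples of neither group 26 did, and 30 did between the 52 highest and the other high samples.

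The genes named here are the 2 largest rises and the 2 largest falls among called genes with a mean of at least 5 FPKM and the same direction in all 3 blocks. Direction here is that of the difference in log2(FPKM + 1). More genes met this rule than are named. The 4 genes are given by identifier, and their functions are not stated since no table at hand names them. The next 10 higher genes under this rule differed by 0.41 to 0.88, and the next 10 lower genes by -0.43 to -0.33.

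ENSRNOG00000014656 differed most. It is a short gene, on which 1 read is worth more FPKM than on most genes. In the Ucp1-low samples it ran from 0 (in 10 samples) to 115.6 FPKM with a median of 1.53, on 2 reads. In the Ucp1-high samples it ran from 1.32 to 139.2 FPKM with a median of 22.97, on 32 reads. All but 1 of the high samples lay above the low group's median, but the ranges overlapped. The means were 38.8 ± 35.6 FPKM and 7.65 ± 19.1 FPKM (SD over the samples of each group), and the difference was 3.03 (SE 0.22, limma adjusted p = 1.67e-27). Within blocks 1, 2 and 3 it was 2.13, 2.96 and 3.59, with adjusted p-values of 0.488, 3.06e-18 and 1.39e-08.

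The gene was also high in some samples with no Ucp1 read. Above 22.97 FPKM, the median of the high group, lay 11 of the samples at 0 (7.59% of them) and 21 of the samples in neither group (10.1%), 1 sample being in both counts. Among the samples at 0 these were 5 of 20 in block 1, 5 of 72 in block 2 and 1 of 53 in block 3. In the 52 highest Ucp1 samples it never fell below 11.1 FPKM, and 45 of them lay above that median. A high level of this gene was thus found without Ucp1 reads, while no sample among the 52 highest for Ucp1 was near 0 for it.

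ENSRNOG00000018674, 3055 bp long, differed less and was well above the limit of detection in both groups. It ran from 1.10 to 11.5 FPKM with a median of 3.43 in the low group, and from 2.21 to 39.8 FPKM with a median of 7.65 in the high group. The groups overlapped, though 22 high samples lay above the highest low sample and 95 (91.3%) above the low group's median. The means were 9.51 ± 6.90 and 3.96 ± 1.93 FPKM (SD), and the difference was 0.91 (SE 0.10, limma adjusted p = 2.50e-14). It was 0.16 within block 1, 0.96 within block 2 and 0.94 within block 3, where the adjusted p was 0.848, 5.39e-12 and 0.172. With all 53 samples at 0 in block 3 as the low group, it was 1.02 (adjusted p = 6.42e-07).

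ENSRNOG00000046683, 2418 bp long, was the largest fall. It ran from 4.06 to 92.97 FPKM with a median of 15.5 in the low group, and from 3.19 to 93.9 FPKM with a median of 9.91 in the high group. The ranges were nearly the same, and 77 high samples lay below the low group's median. The means were 13.2 ± 11.05 FPKM in the high and 21.2 ± 17.4 FPKM in the low group (SD), with a difference of -0.63 (SE 0.13, limma adjusted p = 0.000155). It was -0.49 with all samples at 0 (adjusted p = 0.000624). Within blocks 1, 2 and 3 it was -0.25, -0.64 and -0.68, with adjusted p-values of 0.851, 0.00104 and 0.374. With all 53 samples at 0 in block 3 as the low group, it was -0.27 there (adjusted p = 0.528), less than it was with the 12 low samples.

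ENSRNOG00000036260, only 69 bp long, rested on a median of 2 reads per sample in both groups, so its size is poorly known. Its median was 6.37 FPKM in the low group (0 to 24.5) and 5.63 FPKM in the high group (0 to 17.8), and it was at 0 in 7 low and 24 high samples. The difference was -0.58 (SE 0.18, limma adjusted p = 0.0162). It did not pass with 1 sample per title number (-0.52, adjusted p = 0.0570), when ranked within blocks (-0.37, 0.140), with the 42 highest and 42 lowest samples (-0.96, 0.0586) or when the low group was filled from the last samples at 0 by accession (-0.47, 0.0543). Within block 2 it was -0.73 (adjusted p = 0.0101), and within blocks 1 and 3 it was -0.18 and -0.12 (0.927 and 0.935). With all 53 samples at 0 in block 3 as the low group, it was -0.03 there (adjusted p = 0.977). In plain FPKM, the mean was higher in the high than in the low samples of block 1 (8.89 against 7.31) and block 3 (6.87 against 6.58). The means there were lower only on the scale of log2(FPKM + 1).

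**Figure D3:**
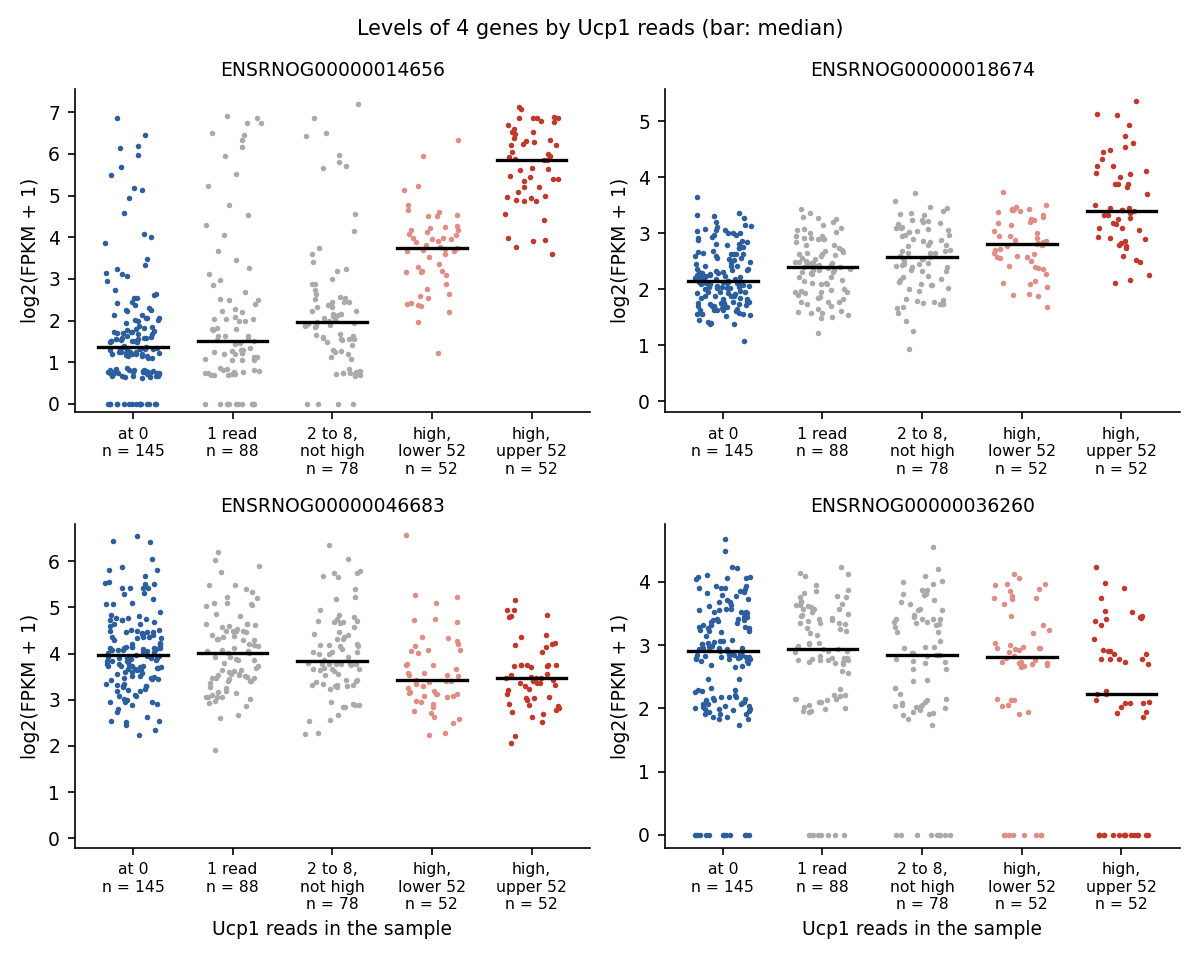
Levels of the 4 genes (vertical axes, log2(FPKM + 1)) in all samples (points), divided by Ucp1 reads into samples at 0, at 1 read, at 2 to 8 reads outside the high group, and the lower and upper 52 of the high group; bars are medians. ENSRNOG00000014656 and ENSRNOG00000018674 have their highest medians in the upper 52 samples, 57.3 and 9.55 FPKM, and ENSRNOG00000014656 also has scattered high samples in the first 3 classes.

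The differences between the groups were largest for the samples with most Ucp1. The high samples were divided at their median into the upper 52 (8.87 to 74.3 FPKM) and the lower 52 (1.52 to 8.74 FPKM), a division made after the data were seen. Against the low samples, the upper 52 gave 2840 genes (17.6%), 1394 higher and 1446 lower. The lower 52 gave 4 genes (0.0248%), 3 higher and 1 lower, and 1749 genes had an unadjusted p under 0.05, against 806.5 for that threshold. Among the 4 were ENSRNOG00000014656 (2.01, limma adjusted p = 1.17e-09) and ENSRNOG00000018674 (0.55, adjusted p = 8.06e-05). Compared directly, the upper and lower 52 differed in 903 genes (5.60%), 603 higher and 300 lower in the upper 52. ENSRNOG00000014656 was higher there by 2.10 (SE 0.19, adjusted p = 2.35e-15) and ENSRNOG00000018674 by 0.73 (SE 0.13, adjusted p = 3.70e-05). For ENSRNOG00000046683 the same difference was -0.04 (SE 0.15, adjusted p = 0.942), and its medians were 9.71 FPKM in the lower and 10.1 FPKM in the upper 52.

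By Ucp1 class, the genes with large differences went up unevenly. These genes were chosen from a comparison of the same samples, so their values carry no test. The values are plain differences of means, without block as a covariate. The classes were unevenly spread over the blocks: block 1 held 20 of the samples at 0 and 0 of the upper 52. Relative to all samples at 0, the median of the 22 genes higher by more than 0.5 was 0.15 in the 88 samples with 1 read and 0.19 in the 78 samples with 2 to 8 reads outside the high group. It was 0.26 in the lower 52 and 1.06 in the upper 52 of the high group. The 10 genes lower by more than 0.5 moved more evenly, with medians of -0.03, -0.13, -0.34 and -0.53 in the same classes. Over all genes tested the medians lay between -0.01 and 0.00.

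**Figure D4:**
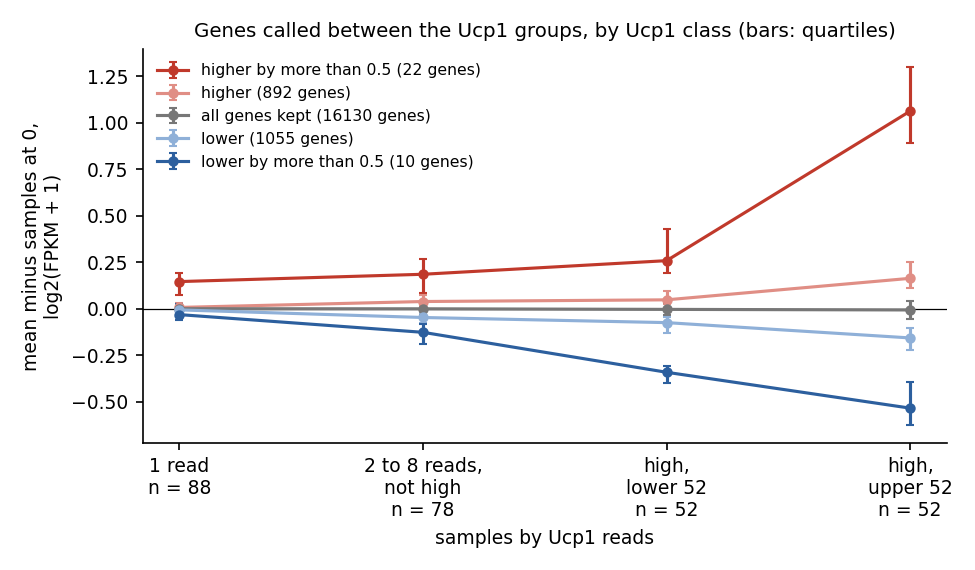
Mean level of called genes minus their mean in the samples at 0 (vertical axis, log2(FPKM + 1)) in 4 classes of samples by Ucp1 reads (horizontal axis); points are medians over the genes of a set and bars are the quartiles. The 22 genes with the largest rises lie at 0.26 in the lower 52 and 1.06 in the upper 52 high samples, while all genes stay near 0. Block was not a covariate for these values.

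In the samples of neither group, Ucp1 spanned only 0 to 1.43 FPKM. The slope of each gene on log2(Ucp1 FPKM + 1) was tested there, in samples that the comparison had not used. No gene was called (0 of 16130, 0%, limma), and 762 genes had an unadjusted p under 0.05, against 806.5 for a threshold of 0.05. The slope was above 0 in 742 of the 892 genes called higher between the groups and below 0 in 893 of the 1055 called lower, against 7983 above 0 of all 16130. These samples are not fully separate from the groups: 24 pairs with a high sample and 19 with a low sample share a title number. Genes can also vary together, so these counts carry no test. Per unit of log2(Ucp1 FPKM + 1), it was 1.13 for ENSRNOG00000014656 (SE 0.37, adjusted p = 0.980) and 0.43 for ENSRNOG00000018674 (SE 0.12, adjusted p = 0.727). Over all samples, 3661 genes (22.7%) were called on the slope, 1810 upward and 1851 downward. The samples of neither group had 0 to 8 Ucp1 reads, so their order by Ucp1 carries a large counting error.

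Within single blocks the calls came mainly from block 2. There, 66 high against 72 low samples gave 1569 genes (9.73%), 774 higher and 795 lower. Block 3, with 35 high and 12 low samples, gave 3 genes (0.0186%) and 1813 at an unadjusted p under 0.05. With all 53 samples at 0 of that block as the low group, 1.44% of genes were called, 74 of them lower. Block 1, with 3 high and 20 low samples, gave 0 genes (0%) with limma and 1666 at an unadjusted p under 0.05. That threshold alone stands for 806.5 genes, in block 1 as in block 3. The direction within blocks was counted for the called genes. Of the 892 genes called higher, 878 were also higher within block 3 and 456 (51.1%) within block 1. Of the 1055 called lower, 1041 were lower within block 3 and 421 (39.9%) within block 1. The median difference within block 1 was 0.004 for the first set and 0.045 for the second, against 0.015 over all genes. Within block 3 the medians were 0.113 and -0.171, against 0.001. Of the genes higher and lower by more than 0.5, 15 of 22 and 3 of 10 kept their direction within block 1. These genes were called on the samples of all 3 blocks, most of them in block 2, so these counts are no independent check.

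The interaction of group and block was called for 1 gene of 16130 (0.00620%), ENSRNOG00000053467, named here after its values were seen. An unadjusted p under 0.05 was found for 1793 genes, against 806.5 for that threshold. Block 1 had 3 high samples, so differences between blocks were weakly tested. With all samples at 0 as the low group, 2 genes had such an interaction (0.0124%).

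**Figure D5:**
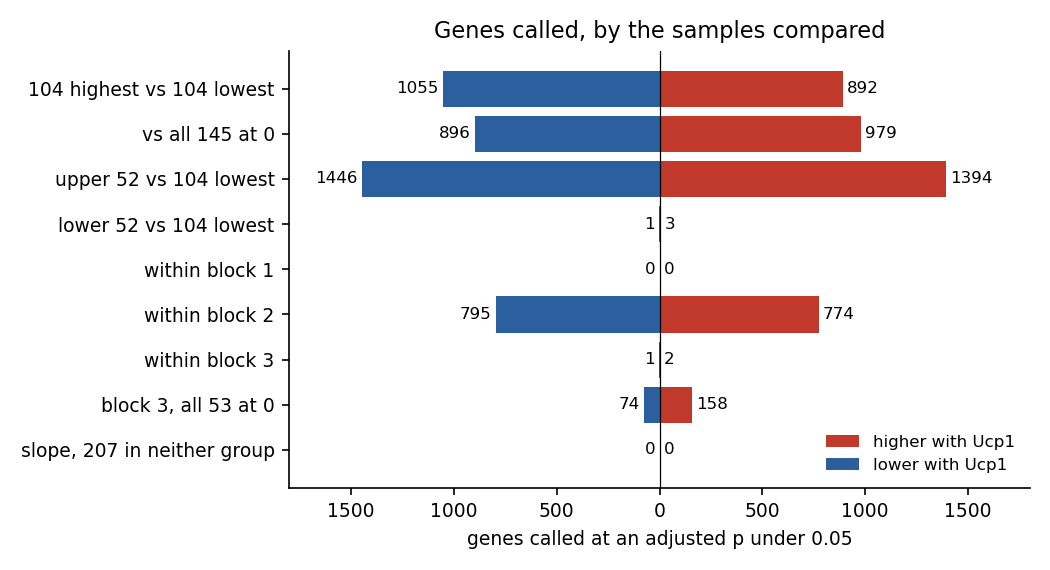
Number of genes called at an adjusted p under 0.05 (horizontal axis; red to the right, higher with Ucp1; blue to the left, lower) for each choice of samples (rows). The upper 52 high samples gave 1394 and 1446 genes, and the lower 52 gave 3 and 1.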

How the data were processed

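RNA from adipose tissue was sequenced in 415 samples of 1 labelled group. The submitters' processing notes name STAR, Picard, featureCounts and DESeq2, without version or role, and genome build and annotation are not given in the sources used here. The authors deposited FPKM values for 18358 genes, without a unit in the file header: the values behave as read numbers over gene length and a scaling factor of each sample. Whole reads were recovered for 100% of genes within a tolerance of 0.001, and ranged from 2139163 to 6248214 per sample, with 0 unmatched columns. Floors of 3 reads cover counting error only.

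Samples were ranked by Ucp1, with ties broken by accession: 104 were highest, 104 lowest and 207 in neither group, and 145 were at 0. The 3 blocks held 39, 232 and 144 samples. The 208 samples carried 181 title numbers, and 105 pairs shared one over the series. Genes above 1 FPKM in at least 20% of samples were kept, 16130 besides Ucp1, and log2(FPKM + 1) was fitted with limma 3.58.1 (lmFit, and eBayes with a trend) in R 4.3.3; the scripts were checked on simulated data. Python 3.11.15 was used for the rest.

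The members and lists were chosen with earlier results of these data known. Planned gene lists and marker genes were not analysed here, since 0 identifiers could be matched to symbols. The genes named are the 2 largest rises and 2 largest falls among called genes with a mean of at least 5 FPKM and the same direction in all 3 blocks, met by 364 higher and 279 lower genes. The comparisons with all samples at 0, and of the upper and lower 52, were added after the data were seen.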

Additional observations from a re-analysis of the deposited data

Results flagged for a closer look

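The difference between Ucp1-high and Ucp1-low samples was not the same in the 3 title-number blocks for ENSRNOG00000053467 (limma interaction test, adjusted p = 1.1e-07). The gene is 95 bp long and had a median of 7 reads in the high and 6 in the low group. Its difference was -2.57 in block 1, 0.00 in block 2 and 0.50 in block 3. In block 1 it was listed at a median of 0 FPKM in the 3 high samples (0 to 18.4) and 15.7 FPKM in the 20 low samples, so the value rests on 2 samples at 0. Single outlying samples were not tested in the Ucp1 groups.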

How the results depend on the processing

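The share of genes called, 12.1% with 5.53% higher and 6.54% lower, stayed within 1.5 times with another pseudocount (0.1), without the filter or with it at 80% of samples, after quantile normalization, with blocks from gaps above 250, with log2 reads as covariate, with 1 sample per title number, with the title number as a random block (10.2%), when ranked within blocks, by voom on the recovered reads, with all or the last samples at 0, and without samples under 3500000 reads. Of the 1947 genes called, these settings called again from 56.4% (ranked within blocks) to 98.9% (log2 reads as covariate), with 64.7% for the last samples at 0. A like share thus did not mean the same genes. With a spline of the title number in place of the block the share was 6.87% (3.65% higher, 3.22% lower), and 54.2% of the 1947 genes were called again. With log2 reads added to the spline the share was 8.56% (4.50% higher, 4.05% lower). With that spline, log2 reads and all samples at 0 as the low group it was 11.7% (6.05% higher, 5.64% lower). Without the block covariate the share was 17.4% (8.44% higher, 8.93% lower). The cause was not tested. The 42 highest against 42 lowest gave 23.4% (10.97% and 12.5%), where all low samples come early in the numbering by construction, and the slope over all samples gave 22.7% (11.2% and 11.5%). The share was 0% (0% and 0%) in the samples of neither group and within block 1, with either low group. It was 0.0186% within block 3 (0.0124% and 0.00620%) and 1.44% there with all samples at 0 (0.980% and 0.459%). Why these shares were low was not tested. The upper 52 gave 8.64% higher, the lower 52 gave 0.0248% (0.0186% and 0.00620%), and the upper against the lower 52 gave 5.60% (1.86% lower). Interactions with block numbered 1, against 4 genes with a pseudocount of 0.1 and 2 with all samples at 0. Of the values of the 4 named genes under the alternatives, 90 kept direction and call, 25 kept only direction and 0 reversed. The genes were chosen for the same direction in all 3 blocks, so their values within blocks against the low group could not reverse. Within blocks 1 and 2 the low group already held all samples at 0, so those fits were counted again. Most alternatives also share samples with the main comparison, and these counts are no independent check. With the filter at 80% of samples ENSRNOG00000014656 was not among the genes kept. Marker covariates and gene lists were not run, since the identifiers carry no symbols. Depth limits Ucp1 below about 3 reads per sample.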
